A study of Mus musculus with 6 samples.

Results

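Chromatin accessibility was examined at 9 genes of muscle atrophy in the quadriceps femoris of mice: the FoxO transcription factor genes Foxo1, Foxo3 and Foxo4, the ubiquitin ligase genes Trim63, Fbxo32, Fbxo30 and Fbxo21, and the stress-response genes Klf15 and Ddit4. The deposited peak table assigned 113 of its 75134 peaks to these genes, and every peak bearing one of the 9 gene names was taken, whatever its values. The genes themselves were selected on the KO over WT differences in peak counts of these same 6 libraries, so the genotype values are given as a description, with fold changes, standard errors and the calls of the fit over all peaks. They are not independent evidence. The assay was ATAC-seq, in which the transposase Tn5 cuts open chromatin, and it reports accessibility, not transcription. Nuclei from frozen muscle gave 3 Prr14-KO and 3 Prr14-WT libraries (KO replicates 4, 5 and 7, WT replicates 3, 4 and 8). Prr14 encodes a protein of the nuclear lamina. Strain, age, sex, the deleted part of Prr14 and the tissue range of the deletion are not stated in any source used here, nor is it said whether each library is a separate animal, so the spread between libraries may be partly technical.

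Muscle mass depends on the balance between protein synthesis and breakdown. When insulin and IGF signalling is strong, the kinase AKT phosphorylates FoxO proteins and keeps them out of the nucleus. When it is weak, as in fasting, denervation or glucocorticoid excess, FoxO proteins enter the nucleus and switch on ubiquitin ligases and autophagy genes, which mark and remove muscle proteins. The glucocorticoid receptor acts on the same genes, directly and through KLF15, while DDIT4 (REDD1) restrains protein synthesis by inhibiting mTORC1.

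Promoter sequences are shown for 3 of these genes. The RefSeq promoter table for GRCm38.p6 holds windows of 300 bases, 250 before and 50 after the start site, for 7 of the 9 genes. Foxo1 is shown because its peaks differ most between the genotypes, Trim63 for its FoxO and glucocorticoid receptor motifs and Klf15 for its repeated E-box. Capitals mark motif matches, and each sequence is written 5′ to 3′ on the plus strand, which is the strand of all 3 genes.
Foxo1, chr3:52268087-52268386: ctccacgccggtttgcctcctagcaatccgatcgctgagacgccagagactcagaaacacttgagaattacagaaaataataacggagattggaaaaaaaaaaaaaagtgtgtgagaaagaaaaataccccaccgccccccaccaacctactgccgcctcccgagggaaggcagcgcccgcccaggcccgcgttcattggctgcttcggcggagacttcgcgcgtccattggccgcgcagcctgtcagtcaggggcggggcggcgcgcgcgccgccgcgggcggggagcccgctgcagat
Trim63, chr4:134314870-134315169: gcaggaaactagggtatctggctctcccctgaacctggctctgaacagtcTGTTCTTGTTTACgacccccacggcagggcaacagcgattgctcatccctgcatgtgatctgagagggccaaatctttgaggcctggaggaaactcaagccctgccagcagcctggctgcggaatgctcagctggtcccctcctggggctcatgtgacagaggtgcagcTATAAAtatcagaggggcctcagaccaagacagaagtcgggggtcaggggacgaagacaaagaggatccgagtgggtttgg
Klf15, chr6:90462326-90462625: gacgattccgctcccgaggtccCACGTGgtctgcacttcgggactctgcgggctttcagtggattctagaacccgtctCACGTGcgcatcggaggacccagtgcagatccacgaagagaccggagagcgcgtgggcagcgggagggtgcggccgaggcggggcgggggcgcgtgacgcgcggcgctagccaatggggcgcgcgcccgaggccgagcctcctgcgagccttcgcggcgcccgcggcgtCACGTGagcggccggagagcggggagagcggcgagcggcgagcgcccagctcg
Searched on both strands were the FoxO motifs GTAAACA and CAAAACA, the glucocorticoid receptor motif AGAACA, alone or followed after any 3 bases by TGTTCT, the MEF2 motif (CTA and TAG with 4 bases between) and the E-box CACGTG. The TATA box TATAAA was searched on the gene's own strand. In Trim63, AGAACA on the minus strand (bases -200 to -195 from the start site) directly adjoins GTAAACA on the minus strand (-194 to -188), and a TATAAA stands at -31 to -26. GTAAACA occurs in 3.65% of the 32851 promoter windows of the table, AGAACA in 19.0%, its pair in 0.00913%, TATAAA in 8.32%, CAAAACA in 6.28% and the MEF2 motif in 3.69%. Klf15 has CACGTG at -228 to -223, at -172 to -167 and across its start site, against 7.15% of windows with at least 1 copy. The windows of Foxo1, Foxo3, Fbxo30, Fbxo21 and Ddit4 hold none of these letters. The Trim63 window has 7 CpG sites and a GC content of 57.0%, against 26 to 47 CpG sites and 61.3% to 79.7% in the other 6.

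Library depth and the general checks were as follows. Counts in peaks totalled between 9346968 and 12061822 in the KO libraries and between 7608514 and 11575061 in the WT libraries, and libraries of 1 genotype varied beyond counting error, with a chi-square of 4.04 to 7.36 for each degree of freedom. Levels are CPM, the counts scaled to a library total of 1000000 after TMM correction, and a peak is called when its adjusted p in edgeR's quasi-likelihood test over 73896 peaks is below 0.05. Calls and the SE of a fold change come from this test, which pools variability over peaks. The SE therefore does not measure the spread between a peak's own libraries, which the CPM values show. The Prr14 promoter peak had 51.2, 59.7 and 70.7 CPM in KO and 62.3, 66.5 and 57.1 CPM in WT. It was not called, and because the deleted part is unknown it cannot check the genotype. Of 10 myofibre markers, 9 had a tested promoter peak, with Myh2 lacking one, and their summed level ran from 668 to 718 CPM in KO and from 578 to 951 CPM in WT, with WT replicate 4 the highest. Among these the fast myosin gene Myh4 had a promoter called lower in KO (37.6 CPM in KO and 79.2 CPM in WT, log2 fold change -1.08). Of all peaks of the list 16.8% were called lower and 2.65% higher, against 4.23% and 2.77% of all tested peaks. Endothelial markers (6 of 8 tested) summed to 50.2 to 72.6 CPM in KO and 42.1 to 60.0 CPM in WT, with the Cldn5 promoter called higher in KO (log2 fold change 0.71). Leukocyte markers (1 of 6 tested) summed to 2.63 to 5.33 CPM in KO and 3.86 to 4.84 CPM in WT. The promoter sums of fibro-adipogenic, satellite cell, smooth muscle, adipocyte and Schwann cell or neuron markers overlapped between the genotypes, with 0 promoters called in edgeR, DESeq2 or limma-voom and 1 at an unadjusted p under 0.05. Over all peaks, 4 of 22 at satellite cell markers were called higher in KO (18.2%) and 0 lower. Of 72 at endothelial markers 3 were called higher (4.17%) and 4 lower (5.56%). The shares of all tested peaks were 2.77% higher and 4.23% lower. The part of these cell types in the values at the 9 genes was not tested. In whole tissue, fewer nuclei of a type and less accessibility per nucleus cannot be told apart.

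Foxo1 had lower accessibility in KO inside the gene and far downstream. None of the 9 promoter peaks was called, and of the promoter peaks of all genes 0.699% were called lower and 0.894% higher. Of the 113 peaks, all tested, 12 were called lower and 0 higher in KO, and all 12 belonged to Foxo1. Of all tested peaks 4.23% were called lower and 2.77% higher. The other 8 genes had 65 peaks and 0 calls in edgeR with TMM, with 9 at an unadjusted p under 0.05 (13.8%, against 17.0% of all tested peaks), and DESeq2 and limma-voom called 0 of them as well. Their median log2 fold change was -0.08, against -0.54 over the 48 Foxo1 peaks and -0.01 over all tested peaks. The authors' deposited table lists 2 of the 113 peaks as passing an adjusted p of 0.05, both lower and both at Foxo1. Of all peaks with an adjusted p there, 0.872% were lower and 2.44% higher.

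**Figure D1:**
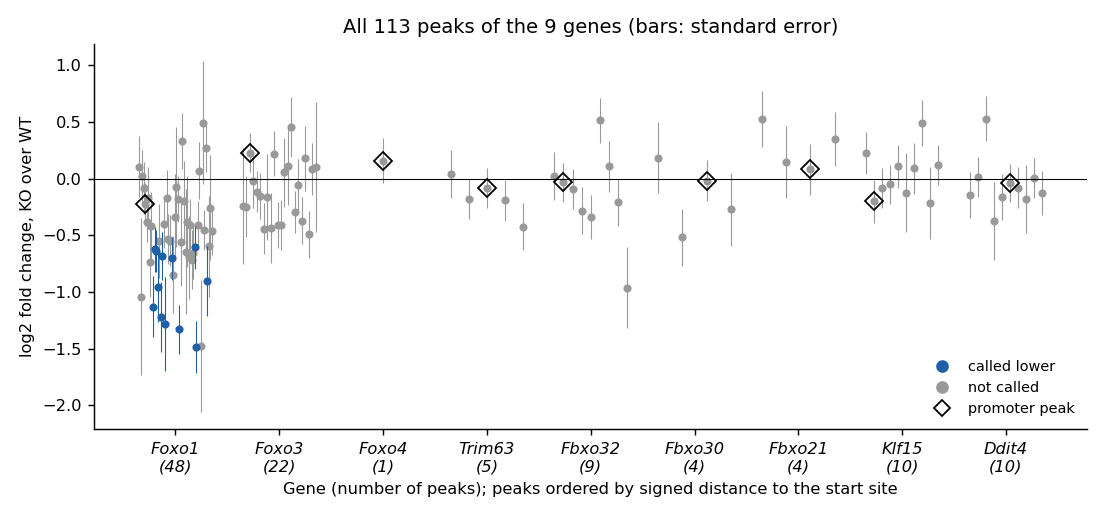
Each point is 1 of the 113 peaks of the 9 genes, with its log2 fold change of KO over WT on the vertical axis and its standard error as a bar; within a gene, peaks run by signed distance to the start site, and open diamonds mark promoter peaks. The 12 peaks called lower, in blue, all lie in the Foxo1 column, and the promoter peaks of the 9 genes lie between -0.23 and 0.23.

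Foxo1 (ENSMUSG00000044167, chromosome 3, RefSeq span 52268337 to 52350109 in GRCm38) encodes a FoxO factor that lowers muscle mass when overexpressed in mouse muscle and controls fuel use. Its 48 peaks reached from 69869 bases before to 373164 bases after the start site. The log2 fold change was negative at 42 of them, against 51.2% of all tested peaks, and it ran from -1.49 to 0.50. At 18 of the 48 every KO library lay below every WT library, and at 0 every KO library lay above, against 11.2% and 9.17% of all tested peaks. Among 456 genes with at least 20 tested peaks, 27 had a lower median than Foxo1, and 12 others had at least 12 peaks called lower.

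Summed over its 48 peaks, Foxo1 had 486, 476 and 513 CPM in KO and 621, 802 and 630 CPM in WT, 0.72 times the WT mean and 0.79 times without WT replicate 4. The groups did not overlap. The difference varied between stretches of the locus, which were chosen after values were seen, and a trend with position was not tested. The 4 upstream peaks had a median log2 fold change of -0.03 and their summed level was 29.8, 29.4 and 26.5 CPM in KO and 29.6, 28.2 and 30.01 CPM in WT, with overlapping groups. The 2 promoter-class peaks summed to 54.3, 60.2 and 79.0 CPM in KO and 84.2, 87.3 and 68.7 CPM in WT, which overlapped as well. All 15 gene body peaks had negative fold changes, with a median of -0.62, and 7 were called lower, none of them without WT replicate 4. Their sum was 133, 134 and 121 CPM in KO and 168, 246 and 177 CPM in WT, so the groups did not overlap. The 27 downstream peaks, up to the last one assigned to Foxo1, had a median of -0.47, 5 calls lower and sums of 270, 252 and 286 CPM in KO and 340, 440 and 354 CPM in WT, again without overlap. WT replicate 4 gave the highest sum over the gene body and downstream. The mean sum in KO was 0.66 times that in WT over the gene body and 0.71 times downstream, and 0.75 and 0.78 times without WT replicate 4. That library was the highest of the 6 at 25 of the 48 Foxo1 peaks (52.1%). It was the highest at 28 of the 65 peaks of the other 8 genes (43.1%) and at 24.8% of all tested peaks. It was also the one with the highest myofibre marker sum. Its part in the size of the Foxo1 difference beyond these values was not tested.

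**Figure D2:**
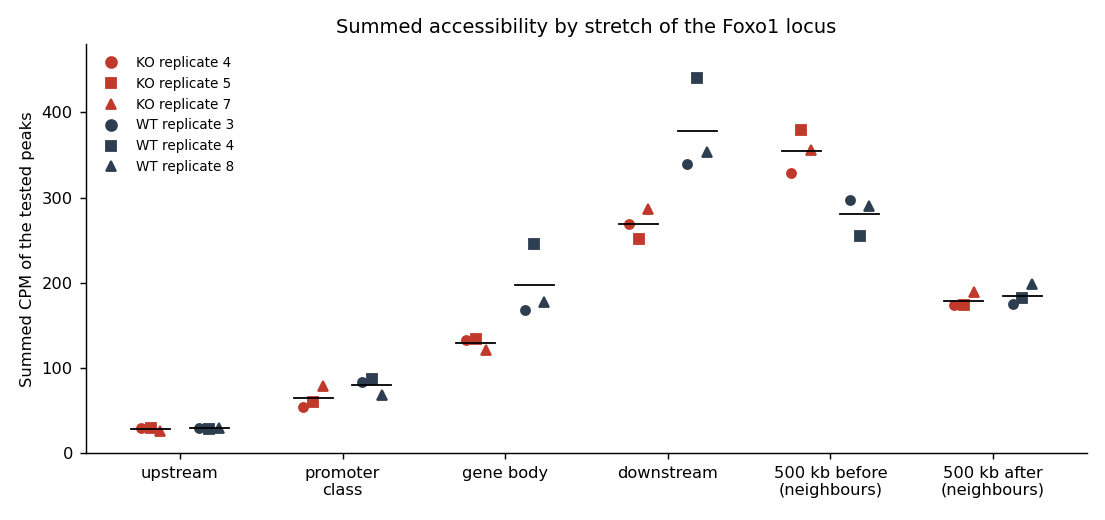
Summed CPM of the tested peaks in each stretch of the Foxo1 locus and in the 500 kb of neighbouring peaks on either side; points are libraries, KO left and WT right, and lines are group means of 3. KO and WT separate over the gene body and downstream, overlap upstream, over the promoter-class peaks and in the 500 kb after the locus, and lie the other way round in the 500 kb before it.

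Peaks assigned to other genes lay on either side of the Foxo1 peaks. In the 500 kb before the first Foxo1 peak, 29 tested peaks, 27 of them at Maml3, a coactivator gene of Notch signalling, had a median log2 fold change of 0.24, with 4 called higher and 0 lower. Their sum was 329, 379 and 356 CPM in KO and 298, 255 and 290 CPM in WT. In the 500 kb after the last Foxo1 peak there were 28 tested peaks, 24 of them at Cog6, a Golgi transport gene. Their median was -0.15, with 0 calls in edgeR and 0 at an unadjusted p under 0.05. Of their values 16 were negative and 12 positive, and at 4 (14.3%) every KO library lay below every WT library. The nearest Cog6 peaks, 379 to 418 kb after the Foxo1 start site, had values of -0.24, -0.21, 0.28 and 0.11. Those from 444 to 525 kb, picked after their values were seen, had -0.29 to -0.78 (SE 0.28 to 0.73). Whether the difference ends at the last Foxo1 peak was not tested. Over the 3691 tested peaks of chromosome 3 the median was -0.07, 7.83% were called lower and 2.09% higher, and 15.4% had every KO library below every WT library.

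**Figure D3:**
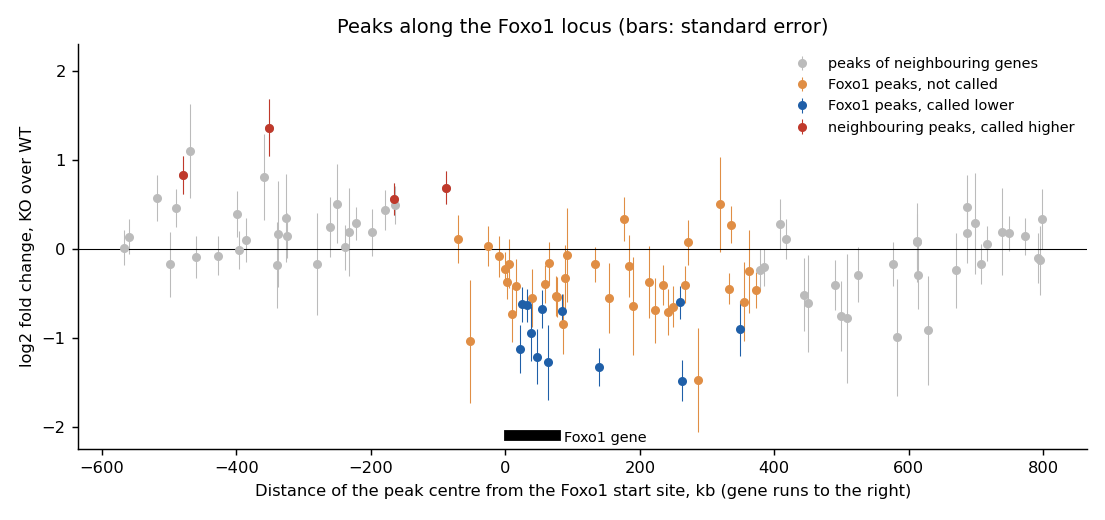
Log2 fold change of KO over WT, with standard error bars, against the distance of each tested peak from the Foxo1 start site in kb, for Foxo1 peaks and for peaks of neighbouring genes within 500 kb of them. Values are mostly above 0 before the gene, where 4 neighbouring peaks were called higher, and mostly below 0 from the gene body to the last Foxo1 peak.

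Among the called Foxo1 peaks, the lowest values relative to WT stood at a pair of downstream intergenic peaks. The peak 263471 bases after the start site (chromosome 3, 52531498 to 52532115) had 8.26, 4.36 and 5.95 CPM in KO and 10.5, 24.02 and 17.0 CPM in WT. Every KO library lay below every WT library (n = 3 each), and the log2 fold change was -1.49 (SE 0.23). The peak 139439 bases after the start site (52406932 to 52408617) had 10.2, 8.71 and 8.79 CPM in KO and 23.7, 25.1 and 20.8 CPM in WT. It fell to 9.25 ± 0.864 CPM in KO, against 23.2 ± 2.20 CPM in WT (SD, n = 3 each), with a log2 fold change of -1.33 (SE 0.21) and a gap between the groups wider than the range within either. A sparse peak 286991 bases after the start site, with 0.74 to 1.25 CPM in KO and 1.10 to 5.002 CPM in WT, had a log2 fold change of -1.48 (SE 0.58) and was not called. The pair are the 2 peaks that the authors' deposited table also lists as lower, with log2 fold changes of -1.32 and -1.15.

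Inside the gene the called peaks were intronic. The most accessible of them, 31788 bases after the start site (52298783 to 52301464), had 27.9, 34.8 and 32.9 CPM in KO and 48.8, 64.4 and 35.1 CPM in WT, a log2 fold change of -0.64 (SE 0.18). KO replicate 5 and WT replicate 8 nearly met there, while WT replicate 4 was far above. The intronic peak 46553 bases in (52314677 to 52315101) had 2.93, 3.95 and 1.83 CPM in KO and 7.31, 7.82 and 5.13 CPM in WT, a log2 fold change of -1.22 (SE 0.31). The intronic peak 22092 bases in (52290013 to 52290842) had 5.54, 3.86 and 3.66 CPM in KO and 5.86, 12.9 and 9.61 CPM in WT, a log2 fold change of -1.13 (SE 0.27), and WT replicate 3 was close to KO replicate 4. The remaining intronic calls, 25149, 38356, 54296 and 63525 bases in, had log2 fold changes of -0.62, -0.95, -0.68 and -1.28. The weakest of these, 63525 bases in, had 1.56 to 1.78 CPM in KO and 1.95 to 6.63 CPM in WT.

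Past the RefSeq end of the gene, a peak of deposited class 3'UTR (52350668 to 52353486) had 16.5, 21.6 and 21.6 CPM in KO and 23.9, 38.8 and 34.8 CPM in WT, a log2 fold change of -0.70 (SE 0.19). The peaks 259966 and 349150 bases after the start site gave -0.61 (SE 0.19) and -0.90 (SE 0.31). The strongest peak of the locus, 332637 bases after the start site (52599990 to 52601955), had 68.5, 77.4 and 76.1 CPM in KO and 91.5, 126 and 86.4 CPM in WT. It was not called, although the groups did not overlap (log2 fold change -0.45, SE 0.17). Of the 6 Foxo1 peaks with a positive fold change, the largest was 0.50.

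Which Foxo1 peaks were called depended on the libraries and the scaling. The 2 peaks at 139439 and 263471 bases were called under all 13 alternatives tried. In all, 3 Foxo1 peaks were called lower without WT replicate 4, 2 of them among the 12 (1.89% of all peaks lower and 2.97% higher). Without KO replicate 5 there were 4 (2.03% of all peaks lower) and without KO replicate 4 there were 5 (3.04%). Without KO replicate 7 there were 8 (2.80%). DESeq2 gave 7 (3.18% of all peaks lower), and the deposited library factors gave 2 (1.02% of all peaks lower and 2.19% higher). These factors ran only from 0.977 to 1.035, while the counts in peaks totalled 7608514 to 12061822. They therefore correct little for depth, and with them the median of all peaks rises to 0.19. Of the 15 gene body peaks, 7 of which were called with TMM and 6 libraries, 0 were called without WT replicate 4 or with the deposited factors, 2 without KO replicate 5 or 7, and 3 without KO replicate 4 or with DESeq2. Their median lay between -0.66 and -0.42 in these and the other alternatives. The median over the Foxo1 peaks stayed negative in each, between -0.54 and -0.33, and 0 Foxo1 peaks were called higher. Against the median of all peaks of the same fit, it was -0.52 with the deposited factors and -0.53 with TMM. Without WT replicate 4 it was -0.41, and without KO replicate 5 it was -0.42.

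**Figure D4:**
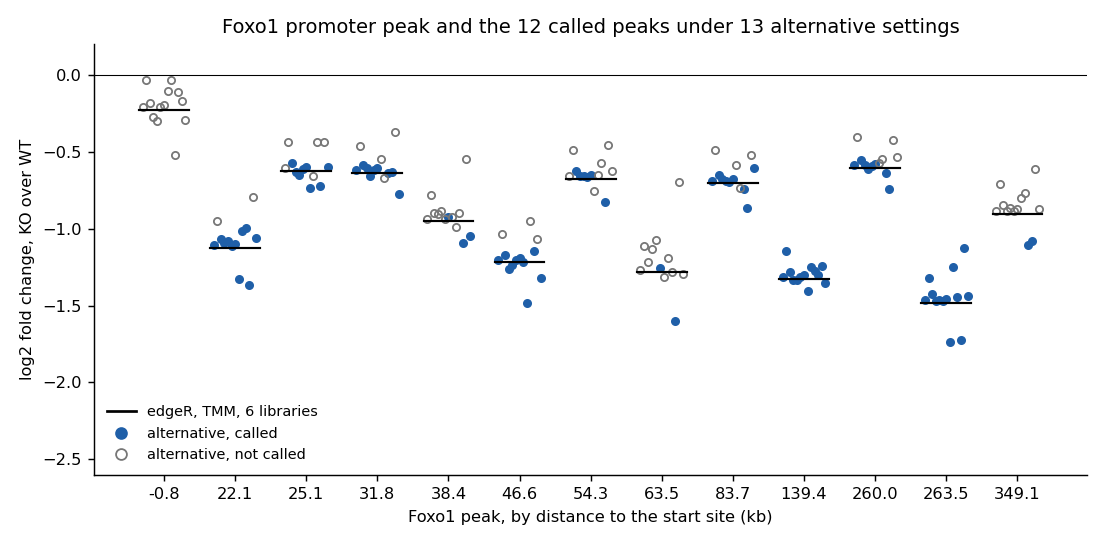
Log2 fold change of KO over WT for the Foxo1 promoter peak (0.8 kb before the start site) and the 12 called peaks, by distance to the start site in kb; lines are the edgeR fit of 6 libraries, and points are up to 13 alternative settings each, filled where the peak was called. All values lie below 0, and the peaks at 139439 and 263471 bases are filled throughout.

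The Foxo1 promoter itself was not called. The peak nearest the start site (52266784 to 52268319) ends before that site and holds 233 of the 300 bases shown above. It had 23.5, 22.3 and 40.0 CPM in KO and 37.7, 34.7 and 27.9 CPM in WT, so KO replicate 7 was the highest of the 6 libraries and the other 2 KO libraries the lowest (log2 fold change -0.23, SE 0.19). The next peak, 2229 bases into the gene (52269478 to 52271651), had 30.7, 37.9 and 39.0 CPM in KO and 46.5, 52.6 and 40.8 CPM in WT. These groups did not overlap, but the peak was not called (log2 fold change -0.38, SE 0.18).

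Foxo3 (ENSMUSG00000048756, chromosome 10), which drives both autophagy and ubiquitin ligase genes in wasting muscle, had 22 peaks and 0 calls, with a median log2 fold change of -0.13. Its promoter peak (42276054 to 42278218) had 65.4, 90.8 and 113 CPM in KO and 85.9, 76.6 and 66.6 CPM in WT. The KO libraries spanned the whole range of the WT libraries (log2 fold change 0.23, SE 0.17). The 18 Foxo3 peaks inside the RefSeq span, promoter-class peaks included, had a median of -0.13 and 12 negative values. Foxo1 had 15 of 15 in its gene body, a set that leaves promoter-class peaks out. The difference between the 2 genes was not tested. The largest value was at an intergenic peak 80138 bases past the start site, with 12.1, 13.8 and 12.2 CPM in KO and 16.2, 22.6 and 14.6 CPM in WT (log2 fold change -0.49, SE 0.21).

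Foxo4 (ENSMUSG00000042903, chromosome X), another FoxO factor under AKT control, had a single peak, at its promoter (101253673 to 101255142). It had 22.3, 22.3 and 23.2 CPM in KO and 20.5, 20.2 and 19.9 CPM in WT. The libraries agreed closely within each genotype and the groups did not overlap, with KO at 1.12 times WT. The peak was not called (log2 fold change 0.16, SE 0.20). Of 12868 tested promoter peaks, 1 per gene, 854 had every KO library above every WT library and 510 had every KO library below.

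**Figure D5:**
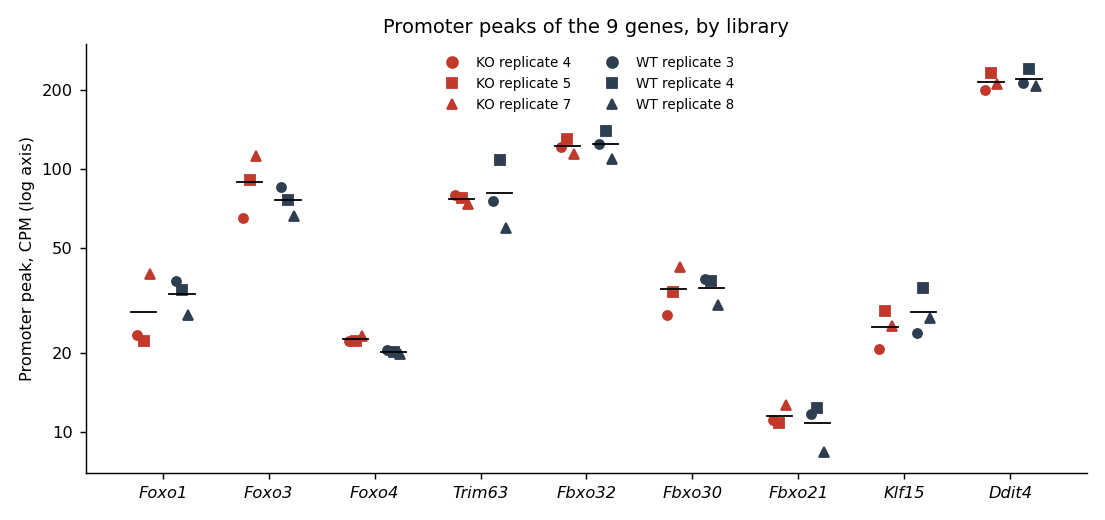
CPM of the promoter peak of each of the 9 genes, on a log axis, with KO libraries left and WT libraries right; points are libraries and lines are group means of 3. The groups overlap at every gene except Foxo4, where the KO libraries lie between 22.3 and 23.2 CPM and the WT libraries between 19.9 and 20.5 CPM. Groups separate with KO higher at 854, and with KO lower at 510, of the 12868 tested promoter peaks of all genes.

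Trim63 (ENSMUSG00000028834, chromosome 4) encodes MuRF1, a ligase of the sarcomere that marks thick filament proteins for breakdown. Its promoter peak (134314265 to 134316748) covers the whole FoxO and receptor motif window shown above. It had 79.9, 77.9 and 74.1 CPM in KO and 75.8, 109 and 59.6 CPM in WT. The WT libraries lay on both sides of the KO libraries, and the log2 fold change was -0.08 (SE 0.17). WT replicate 4 was the highest library at all 5 Trim63 peaks. The largest difference was at an exonic peak 10320 bases in, with 16.2, 11.6 and 14.6 CPM in KO and 20.1, 20.2 and 16.3 CPM in WT (log2 fold change -0.42, SE 0.21, not called).

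Fbxo32 (ENSMUSG00000022358, chromosome 15) encodes atrogin-1 (MAFbx), the F-box subunit of a ligase that targets regulators of protein synthesis and myogenesis. Its broad promoter peak (58211642 to 58216003) had 122, 131 and 114 CPM in KO and 125, 140 and 110 CPM in WT, a log2 fold change of -0.03 (SE 0.17). None of its 9 peaks was called in edgeR with TMM, with 2 at an unadjusted p under 0.05, nor with DESeq2 or limma-voom. Within the gene the values went in both directions. An intronic peak 20251 bases in (58194150 to 58195212) had 32.0, 26.6 and 22.6 CPM in KO and 19.3, 18.8 and 18.6 CPM in WT, without overlap (log2 fold change 0.52, SE 0.20). It was called higher without KO replicate 7 and with library totals in place of TMM. A weak intronic peak 32921 bases in had 2.20, 3.53 and 1.65 CPM in KO and 3.81, 8.19 and 2.24 CPM in WT, where the groups overlapped and WT replicate 4 stood far above (log2 fold change -0.96, SE 0.36). It was called lower without WT replicate 8.

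Fbxo30 (ENSMUSG00000047648, chromosome 10) encodes MUSA1, a ligase subunit that rises in denervated muscle, and Fbxo21 (ENSMUSG00000032898, chromosome 5) encodes SMART, another FoxO-dependent ligase subunit. Each had 4 peaks, and 0 of these were called. The Fbxo30 promoter peak (11280415 to 11282099) had 28.0, 34.3 and 42.7 CPM in KO and 38.2, 37.5 and 30.4 CPM in WT (log2 fold change -0.02, SE 0.18). The Fbxo21 promoter peak (117976390 to 117976834) was the weakest of the 9 in CPM, with 11.1, 10.9 and 12.7 in KO and 11.7, 12.3 and 8.42 in WT (log2 fold change 0.08, SE 0.23). Groups overlapped at both promoters. The largest Fbxo30 difference was 6778 bases upstream, where KO had 5.23, 6.25 and 7.42 CPM and WT 7.72, 11.96 and 7.24 CPM (log2 fold change -0.52, SE 0.25). All 4 Fbxo21 peaks had positive values, the largest at a peak of deposited class intron 43583 bases upstream, with 10.4, 9.21 and 9.06 CPM in KO and 7.51, 6.72 and 5.53 CPM in WT, without overlap (log2 fold change 0.53, SE 0.25).

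Klf15 (ENSMUSG00000030087, chromosome 6) encodes a zinc finger factor induced by glucocorticoids that activates amino acid breakdown and both Trim63 and Fbxo32. It had 10 peaks, 0 calls and a median log2 fold change of 0.02. The peak over the E-box window shown above (90461966 to 90464385) averaged 86.7 ± 4.01 CPM in KO and 91.7 ± 8.85 CPM in WT (SD, n = 3 each, log2 fold change -0.08, SE 0.17). The peak nearest an annotated start site (90465996 to 90466735) had 20.8, 28.9 and 25.4 CPM in KO and 23.8, 35.3 and 27.2 CPM in WT, which overlapped (log2 fold change -0.20, SE 0.19). An intergenic peak 29143 bases downstream of a start site (90495653 to 90496868) had 22.0, 20.9 and 22.1 CPM in KO and 15.02, 17.9 and 13.03 CPM in WT, without overlap (log2 fold change 0.49, SE 0.20). It was called higher without WT replicate 4.

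Ddit4 (ENSMUSG00000020108, chromosome 10) had the strongest promoter of the 9, in a peak that spans the whole gene (59947850 to 59952836). It had 200, 234 and 212 CPM in KO and 213, 241 and 208 CPM in WT (log2 fold change -0.04, SE 0.17), with overlapping groups. The other 9 peaks were intergenic. One of these, 13202 bases upstream (59964512 to 59965560), had 24.5, 24.7 and 19.0 CPM in KO and 12.96, 15.9 and 18.4 CPM in WT. The groups were separated only by the small gap between KO replicate 7 and WT replicate 8 (log2 fold change 0.53, SE 0.20). It was not called with 6 libraries and TMM, and was called higher without KO replicate 7, without WT replicate 8 or with library totals.

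Per kilobase of peak, the promoters ordered alike in both genotypes at the extremes. Ddit4 stood at the top with 43.1 ± 3.41 CPM per kb in KO and 44.2 ± 3.49 CPM per kb in WT, and Foxo4 at the bottom with 15.4 ± 0.349 and 13.7 ± 0.205 CPM per kb (SD, n = 3 each). In KO the order between them was Foxo3, Klf15, Trim63, Fbxo32, Fbxo21, Fbxo30 and Foxo1, and in WT it was Klf15, Foxo3, Trim63, Fbxo32, Fbxo21, Foxo1 and Fbxo30. The libraries of neighbours in the order overlapped throughout, apart from Fbxo30 (18.05 to 22.7 CPM per kb) and Foxo4 (13.5 to 13.9 CPM per kb) in WT.

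Other genes of the pathway were taken as 5 lists, and none of their promoter peaks was called. One promoter peak per gene was used, the nearest to a start site within 3 kb. Over all such peaks, with the call shares given above, the median log2 fold change was 0.06. The counts of promoter peaks called by edgeR were 0 of 23 for other genes of ubiquitin-dependent protein breakdown and 0 of 16 for autophagy genes. They were 0 of 15 for FoxO targets, 0 of 15 for the glucocorticoid receptor gene and its targets, and 0 of 19 for FoxO regulators with Foxo6. Angptl4, Pdk4 and Cdkn1a stand in both the FoxO target and the glucocorticoid list. At an unadjusted p under 0.05 there were 2, 1, 2, 4 and 1, against 6.29% of all promoter peaks. DESeq2 called 0 in each list, and limma-voom called 1, the promoter of Sgk1, which stands in both of the last 2 lists. The median log2 fold changes were 0.05, 0.13, 0.23, -0.01 and 0.12.

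Named promoters with the smallest p of each list stayed within modest folds. Sgk1, an AKT-like kinase gene that glucocorticoids induce, averaged 94.0 CPM in KO and 130 CPM in WT, without overlap (log2 fold change -0.47, SE 0.17, adjusted p = 0.0802 in edgeR's test). Angptl4, a lipase inhibitor gene, averaged 22.7 CPM in KO and 15.7 CPM in WT (log2 fold change 0.54, SE 0.20, edgeR adjusted p = 0.0864). Txnip, a glucose-uptake inhibitor gene and FoxO target, averaged 72.8 CPM in KO and 53.2 CPM in WT (log2 fold change 0.45, SE 0.18, edgeR adjusted p = 0.109). Sqstm1, which encodes the autophagy receptor p62, gave 0.45 (SE 0.21) and the cathepsin L gene Ctsl 0.31 (SE 0.19). The muscle F-box gene Fbxo40 gave -0.35 (SE 0.18), and Smad3, a TGF-beta signalling gene, 0.32 (SE 0.19).

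Over all their peaks, promoters included, each list except the autophagy genes had calls in both directions. Of all tested peaks 4.23% were called lower and 2.77% higher. Over the 194 peaks of the glucocorticoid list 24 were lower (12.4%) and 3 higher, and over the 185 peaks of the ubiquitin list 15 were lower (8.11%) and 2 higher. The FoxO targets had 10 higher (6.62%) and 3 lower of 151, the FoxO regulators 10 lower (5.03%) and 7 higher (3.52%) of 199, both near the share of all peaks, and the autophagy genes 1 higher and 0 lower of 79. Chosen after their counts were seen, the genes with most lower peaks were Nedd4, a ubiquitin ligase gene (6 of 28), Sgk1 (5 of 18), Cebpd, a glucocorticoid-induced factor gene (5 of 10), Glul, the glutamine synthetase gene (4 of 18), Nedd4l (4 of 28) and Ddit4l, a paralogue of Ddit4 (4 of 14). Irs2, an insulin receptor substrate gene, had 3 higher of 36, and Ywhaz, a 14-3-3 protein gene, 3 higher of 17. The glucocorticoid list had 15 lower without WT replicate 4 or without KO replicate 5 and 7 with the deposited library factors, and the ubiquitin list 7, 7 and 2. The FoxO targets had 6 higher without KO replicate 4 or 5 and 5 without WT replicate 3. The regulators had 2 higher without each of these 3 libraries in turn. With the deposited factors the regulators had 3 higher and 4 lower. The shares of all peaks called higher were 1.62% without KO replicate 4, 1.29% without KO replicate 5 and 1.72% without WT replicate 3. With the deposited factors the share was 2.19%.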

How the data were processed

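ATAC-seq libraries from 3 Prr14-KO and 3 Prr14-WT quadriceps samples were analysed, grouped by the genotype label. Per the submitters' processing notes, the build was GRCm38 and the tools included BWA, MACS2, Trimmomatic, bedtools, deepTools and DESeq2 1.6.3, with no role or order given. The authors deposited whole-number counts per peak over a single peak list for all libraries; read shift, duplicate handling and the counting tool are not stated there or in the labels. They also deposited a normalized signal (the count divided by 1 factor per library), a log2 fold change of KO over WT, p-values raw and adjusted, and a score per peak, which was not used. Gene, class and distance are the deposited annotation, by nearness for distal peaks, and spans and promoters come from RefSeq.

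Counts were tested with edgeR 4.0.16 (glmQLFit and glmQLFTest, two-sided) in R 4.3.3 with TMM and filterByExpr (minimum count 10, minimum total 15), adjusted by Benjamini-Hochberg over 73896 peaks. The SE is the absolute log2 fold change divided by the square root of F, with variability pooled over peaks. Alternatives were library totals, the deposited factors, DESeq2 1.42.0, limma-voom 3.58.1 with TMM or cyclic loess, other filters and leaving out each library. The procedure was tested on simulated counts drawn independently for each peak and library. A library that is high at many peaks was not represented there. The 9 genes and 5 lists were chosen with earlier results of these data known. Named peaks are each gene's promoter peak (nearest the start site within 3 kb), every called peak and, for genes without a call, the largest fold change; other named peaks, the Foxo1 stretches and the 500 kb flanks were chosen after values were seen. In the lists the 2 smallest p were named, apart from 1 gene that is not reported here.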

Additional observations from a re-analysis of the deposited data

How the results depend on the processing

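No paired analysis was possible because the groups share only 1 replicate number. The count of member peaks called lower was 12 with TMM, 7 with DESeq2, 2 with the deposited library factors and between 3 and 12 when a library was left out; other filters, library totals and limma-voom gave 9 to 11. The count of member peaks called higher was 0 with TMM, 2 with library totals and between 0 and 2 when a library was left out. Over all peaks, 3128 were lower and 2049 higher with TMM, and 2353 were lower and 1801 higher with DESeq2. The deposited factors, which correct little for depth, gave 752 lower and 1620 higher. Higher calls thus outnumbered lower ones, as they did without WT replicate 4 (1409 lower and 2212 higher). Leaving out a library gave 1409 to 3111 lower and 959 to 2248 higher. With TMM, 0 list promoters were called. With cyclic loess 1 was called in the ubiquitin list, 1 among FoxO targets, 3 in the glucocorticoid list and 1 among FoxO regulators. With limma-voom and TMM 1 was called in the glucocorticoid and 1 in the regulator list, and with library totals 2 among FoxO targets and 1 in the glucocorticoid list. Leaving out a library gave 0 to 2 in the glucocorticoid list, 0 to 1 among regulators and 0 elsewhere. The causes were not tested. A promoter window of 1 kb changed no list count. Of the 12 Foxo1 peaks called lower, each kept a negative fold change under every alternative that tested it. The weak peak at 63525 bases fell below the filter on a mean count of 30. Peaks of a few CPM rest on few counts per library, so their size is uncertain.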
